A study of Homo sapiens with 8 samples.

Results

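A short stretch of human chromosome 21, chr21:9825001-9827000 in the hg19 build, is named here for the microRNA genes MIR3648 and MIR3687 and draws far more reads per CpG than most listed positions. All CpGs listed inside it were taken, 168 of the 3209182 listed anywhere in the series. Their methylation was read by reduced representation bisulfite sequencing (RRBS), a bisulfite assay of CpG-rich fragments next to MspI sites, in HUES64, an established human embryonic stem cell line. The labels give the genotype of all 8 libraries as a DNMT1 knockout, and the libraries were taken at days 0, 1, 2, 3, 4, 5, 6 and 7 of the withdrawal of DNMT1*, a name that the labels do not spell out. There was 1 library per day, so the order of days is the replication, and the course was not repeated. Day 0 is the start of the withdrawal. No wild-type library and no library of a later day without withdrawal was analysed here. Nothing in the labels says whether the line is a single clone.

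After replication, DNMT1 restores CpG methylation on the newly made strand, and marks that are not restored are diluted as cells divide. Ribosomal DNA lies in arrays of near-identical copies on the short arms of the acrocentric chromosomes, chromosome 21 among them. Its 45S transcript is the precursor of the large ribosomal RNAs, and in human cells some copies are methylated and silent while others are active. MIR3648 and MIR3687 are named as microRNAs. In RefSeq (GRCh38.p14), MIR3648-1 lies inside RNA45SN2, a 45S pre-ribosomal RNA gene, and MIR3648-2 lies inside no other listed gene. No hg19 genome or annotation was used here, so that the reads come from ribosomal DNA was not tested from their sequence.

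The mature microRNA is shown because the spacing of its CpGs can be looked for among the listed positions. It is given 5′ to 3′ from RefSeq (GRCh38.p14, plus strand of chromosome 21), first with its seed, bases 2 to 8, in capitals and then with its CpGs in capitals.
hsa-miR-3648 (seed): aGCCGCGGggaucgccgaggg
hsa-miR-3648 (CpGs): agcCGCGgggauCGcCGaggg
Its 4 CpGs lie 2, 7 and 3 bp apart. Among the 165 sets of 4 neighbouring listed CpGs in the locus, 1 has these gaps in this order, and 0 have them in the reversed order. In the whole series, 902 of 3209179 such sets do (0.0281%). The matching CpGs start at 9825862, 9825864, 9825871 and 9825874, in the first kilobase of the locus, and the authors gave the first on the plus strand and the other 3 on the minus strand. This is a match of spacing, not of sequence.

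The rule named the locus for its depth and set it against tiles chosen by their level on days 0 and 1, so depth and these 2 days are described without a test. On day 0 the 168 CpGs had 57 to 8665 reads each, with a median of 3362, which is 76.4 times the median CpG of that library. The median stood at 79.4, 77.4, 69.6, 52.9, 61.5, 74.9 and 88.4 times the library's median on days 1 to 7. Over the 8 days the locus held 0.300 to 0.412% of all read calls with 0.00527 to 0.00597% of the listed CpGs. Libraries fell into 2 ranges of depth, 77691782 to 161534152 read calls on days 0, 1, 2, 6 and 7, and 12359218 to 15156251 on days 3, 4 and 5. Even on day 4, the lowest, the median locus CpG had 212 reads.

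High depth here is given by the deposited alignment, in which many copies may share 1 address. That was not tested. A level is a mean over all reads placed there. If copies share the address, partial methylation of every copy and full methylation of some copies cannot be told apart. Reads that carry no molecular identifier may repeat a molecule. Counts pooled over CpGs add up the reads at each CpG, so a read that spans several CpGs counts at each of them. The Wilson 95% intervals below treat all counts as independent, so they cover counting error at best and may be too narrow.

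Methylation at the locus was intermediate on days 0 to 2 and low by day 7. The mean over the 163 CpGs with at least 10 reads in every library was 24.0, 23.1, 21.3, 14.7, 11.7, 9.63, 5.91 and 4.67% on days 0 to 7. Every day was lower than the day before. The spread over CpGs narrowed along with it, with an SD of 2.76 points on day 7 against 12.9 points on day 0 (n = 163 CpGs, which are not replicates of a day). Pooled over all 168 CpGs, the day 7 level was 4.45% of 577135 reads (Wilson 95% interval 4.40 to 4.51%), against 23.7% of 584802 reads on day 0 (23.6 to 23.8%).

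The daily steps were uneven. Day 1 kept 96.4% of the mean of day 0, and day 2 kept 92.0% of day 1. Day 3 then kept 68.9% of day 2, the days after it kept 79.9, 82.1 and 61.4% of the day before, and day 7 kept 79.0% of day 6. The comparison tiles described below kept 96.2, 84.1, 69.5, 68.4, 79.7, 62.4 and 90.9% of the day before on days 1 to 7. At the locus the lowest shares fell on days 3 and 6, where library depth also changed. Day and depth cannot be told apart there. On day 7 the locus stood at 19.5% of its day 0 mean.

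Over days 2 to 7, which the rule did not use, the natural log of the mean changed by -0.30 ± 0.0181 per day (SE, n = 6 libraries), a loss of 25.9% of the level per day and a halving time of 2.31 days. All 720 orders of the days were permuted, and the exact two-sided p was 0.0028, the smallest they can give, or 0.0083 after Benjamini-Hochberg adjustment over the 3 trends tested. The 95% interval of the slope, from the same permutations, ran from -0.353 to -0.247. All 163 CpGs were lower on day 7 than on day 2, and all 163 were lower on day 6 than on day 2. On day 5, 162 of them were. The share of all listed CpGs that were lower than on day 2 was not counted. Of the 2935 autosomal 1-kb tiles tested below, 69.3% were called as falling over days 2 to 7. Among the comparison tiles 103 of 104 were. These are calls per tile, not counts of lower CpGs. The CpG counts are therefore a description without a like share beside them, and they do not set the locus apart.

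**Figure D1:**
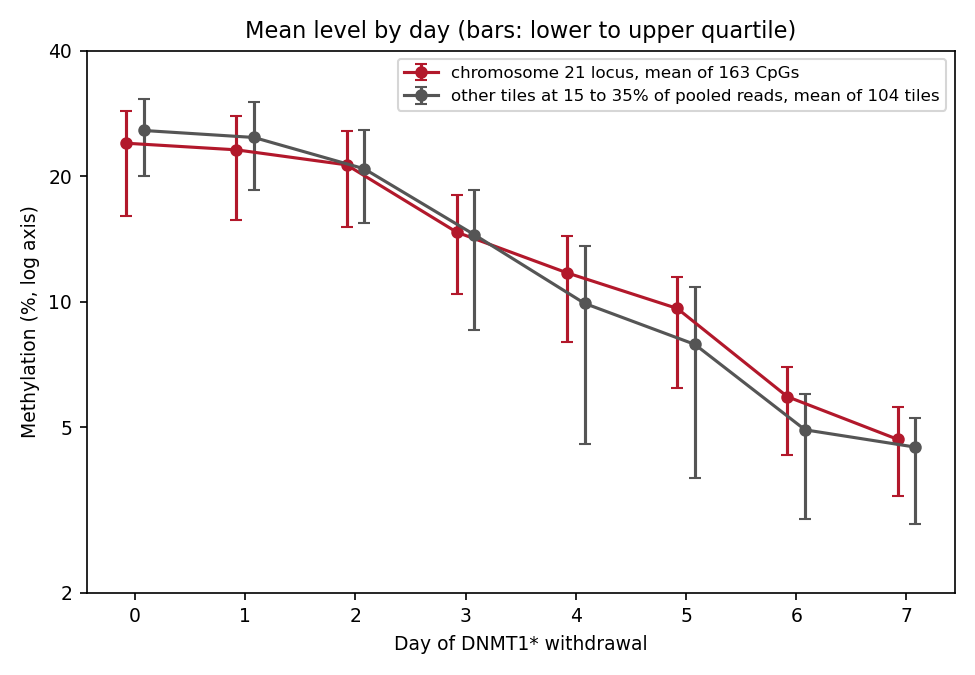
Mean methylation (%, log axis) by day of DNMT1* withdrawal for the 163 CpGs of the chromosome 21 locus (red) and for 104 other 1-kb tiles chosen at 15 to 35% over the pooled reads of days 0 and 1 (grey), whose levels are plotted as means over CpGs; bars span the lower to the upper quartile over CpGs or tiles. The locus stood at 4.67% and the tiles at 4.47% on day 7, and the quartile ranges overlap on every day.

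Both 1-kb tiles of the locus fell. In a quasi-binomial regression of methylated against unmethylated reads on day, fitted to all 2935 autosomal tiles with limma-moderated dispersions, 2033 tiles fell over days 2 to 7 at an adjusted p below 0.05. That is 69.3% of the tiles tested, and 12 tiles (0.409%) rose. The first kilobase, chr21:9825001-9826000, had a slope of -0.36 ± 0.0269 log odds per day (SE, n = 6 libraries, limma-moderated adjusted p = 7.9e-10). Its fitted level was 4.54% on day 7 against 22.1% on day 2. The second, chr21:9826001-9827000, had a slope of -0.36 ± 0.0274 (limma-moderated adjusted p = 8.2e-10), with fitted levels of 4.10% on day 7 and 20.7% on day 2. Both tiles are very deep, with dispersions of 40.2 and 49.6 before moderation. The SEs and p values above rest on the moderated dispersions. On simulated reads this test made too many calls where spread grew with depth. With limma on arcsine square-root levels the adjusted p was 0.0024 for the first tile and 0.0020 for the second, and without moderation it was 0.00033 for each. Since most tiles fell, a fall at both tiles does not set the locus apart, and 103 of the 104 comparison tiles described next (99%) fell too.

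The rate was then set against that of the 104 other autosomal tiles at 15 to 35% over the pooled reads of days 0 and 1, which lay on 20 chromosomes and held 764 CpGs with at least 10 reads in every library. Tiles were chosen by pooled reads but compared, like the locus, by the mean over CpGs. By that mean, 92 of them stood at 15 to 35% on days 0 and 1, 6 above and 6 below, with a range of 10.2 to 52.2%. These tiles had a median of 164 reads per CpG on day 0, against 44 at the median listed CpG of that library. Their mean was 25.7, 24.8, 20.8, 14.5, 9.90, 7.89, 4.92 and 4.47% on days 0 to 7. The locus thus stood 1.75 points below the tiles on day 0, 0.459 points above them on day 2 and 1.82 points above them on day 4. On day 7 it was 0.196 points above. Of the 104 tiles, 60 stood above the locus on day 0, and 39 did on day 7. The locus stayed within their range.

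No difference in rate was shown. The log ratio of the locus to the tiles changed by 0.02 ± 0.0214 per day over days 2 to 7 (SE, n = 6 libraries, exact permutation p = 0.41, adjusted 0.41). Its 95% permutation interval, from -0.0431 to 0.0714 per day, still holds differences in either direction. With 108 tiles chosen by the mean over CpGs, an alternative added after seeing the data, the slope was 0.02 (exact permutation p = 0.23). Over all 8 days the ratio rose by 0.03 ± 0.0124 per day (exact permutation p = 0.048), in a fit that includes the days by which the tiles were chosen, and it had the other sign with 1 read per CpG (-0.02, exact permutation p = 0.31) or 10 reads per tile (-0.02, exact permutation p = 0.42) in place of 10 per CpG.

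As a description, the locus kept 88.7% of its day 0 mean on day 2, against 80.9% in the tiles. From day 2 to day 7 the locus mean kept 21.9%, against 21.5% for the mean of the tiles. Over single tiles the median share kept was 20.1% (quartiles 16.7 and 25.2%), and 46 of the 104 tiles kept more than the locus. In log odds, 64 of the 104 tiles fell more steeply than the first kilobase and 64 more steeply than the second. The median slope of the tiles was -0.38 per day, with a median SE of 0.0668, against 0.0269 and 0.0274 at the locus tiles.

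**Figure D2:**
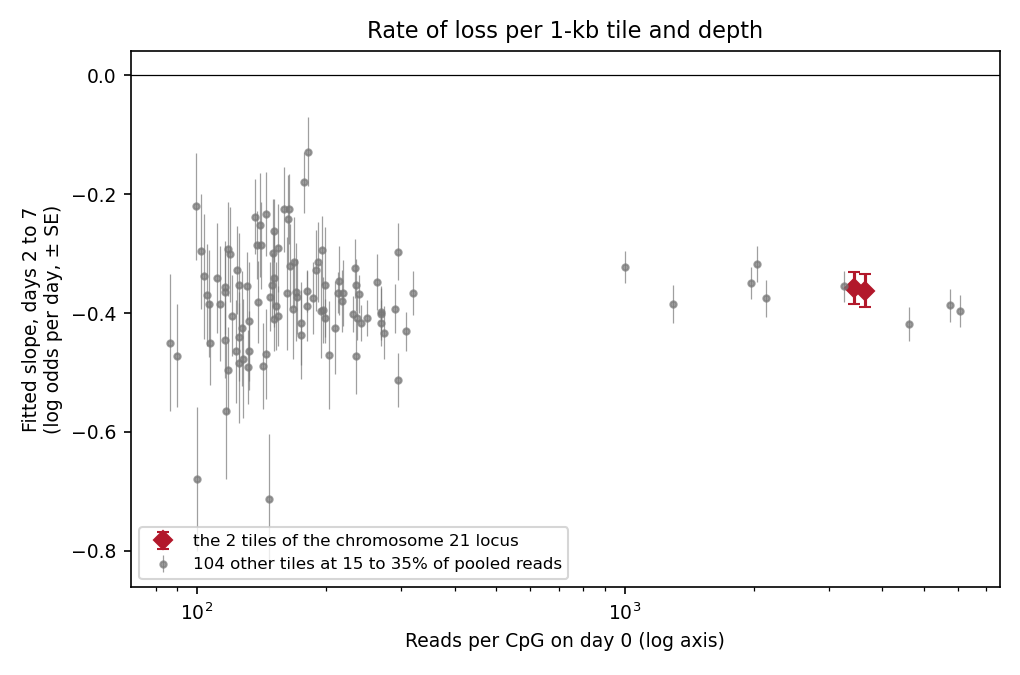
Fitted slope over days 2 to 7 (log odds per day, ± SE) against reads per CpG on day 0 (log axis) for the 2 tiles of the chromosome 21 locus (red diamonds) and the 104 other tiles at 15 to 35% over the pooled reads of days 0 and 1 (grey). Both diamonds lie at -0.36, close to the tiles' median of -0.38.

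The 3 comparison tiles with the most reads per CpG on day 0 had more reads per CpG than the locus. The first of them, at chr2:133025001-133026000, had 6085 reads per CpG and kept 19.7% of its day 2 level on day 7, with 5.25% on day 7 and 26.7% on day 2. The next was chr21:9827001-9828000, the kilobase that follows the locus directly, with 5773 reads per CpG over 18 CpGs. It stood at 27.4% on day 0, 23.9% on day 2 and 4.89% on day 7, and kept 20.5%. The last of the 3, chr11:85195001-85196000, had 4620 reads per CpG and kept 18.1%. No test was run on these tiles alone.

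Depth did not stop at the end of the window. The last CpG inside it, at 9826992, had 2173 reads and 62.6% methylation on day 0, and the first one after it, 69 bp past the end, had 4935 reads and 29.3%. Before the window, the nearest listed CpG lay 87315 bp away, with 56 reads and 82.1%. The first CpG inside, at 9825467, had 2806 reads and 32.4%. Listed CpGs cover 1527 bp of the locus, with a median gap of 4 bp between neighbours.

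Levels along the locus were far from flat. On days 0 and 1 pooled, 117 of the 163 CpGs stood at 15 to 35%, 32 below 15% and 14 above 35%, 9 of which were above 50%. These values are a description, since days 0 and 1 are part of the rule. The profile itself was stable, with Pearson r of 0.988 between days 0 and 1, 0.991 between days 0 and 2 and 0.824 between days 0 and 7 across the 163 CpGs, which share libraries, reads and fragments.

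**Figure D3:**
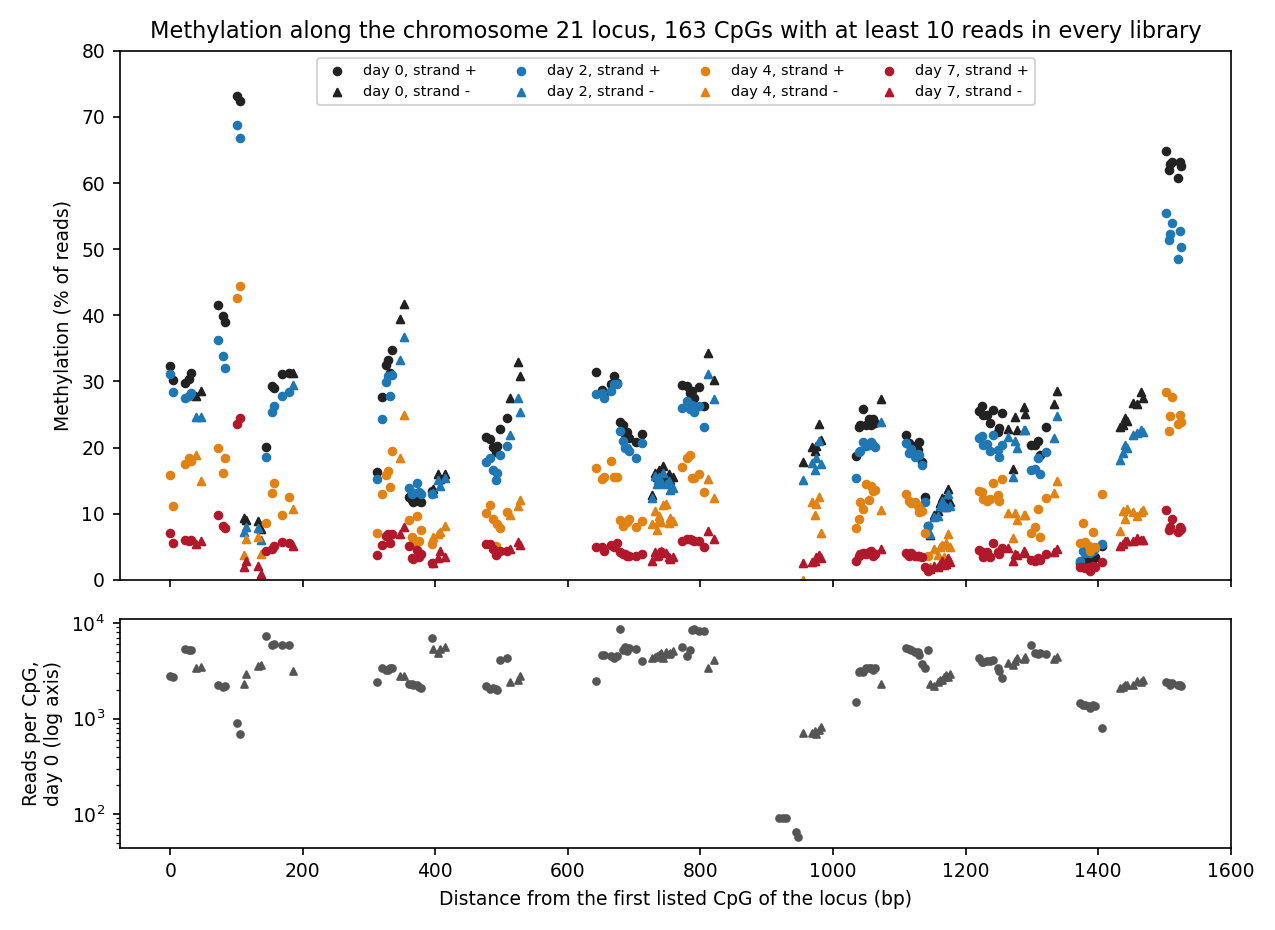
Methylation (% of reads, upper panel) of the 163 CpGs with at least 10 reads in every library on days 0, 2, 4 and 7, and reads per CpG on day 0 for all 168 CpGs (lower panel, log axis), against distance from the first listed CpG (bp); circles and triangles mark the plus and minus strand given by the authors. A pair of CpGs near 100 bp at 73.2 and 72.3% and a run of 7 near the end at 62.8% stand out on day 0, and no CpG is above 24.5% on day 7.

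Neighbouring CpGs were grouped into runs, that is consecutive listed CpGs given on 1 strand and less than 50 bp apart. There were 29 runs, and each of the 168 CpGs was on the same strand in all libraries. Run levels pool the reads of their CpGs, so deeper CpGs weigh more. The highest run on day 0, chr21:9826970-9826993 with 7 CpGs on the plus strand, read 62.8, 56.8, 52.2, 31.5, 25.2, 20.2, 12.3 and 8.35% on days 0 to 7. It stood nearer the rest at the end, at 8.35% on day 7 (Wilson 95% interval 7.90 to 8.83%, 13515 reads) against 62.8% on day 0 (62.0 to 63.5%). By day 7 the run chr21:9825539-9825573 stood above it, at 10.5%. The log slope of the run at 9826970 over days 2 to 7 was -0.348 ± 0.0226 per day (SE, n = 6 libraries). The run before it, chr21:9826900-9826935 on the minus strand, was at 5.82% on day 7 and 25.6% on day 0.

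The highest single CpGs lay elsewhere, in the first kilobase. The CpG at 9825568 read 73.2, 64.9, 68.9, 60.4, 42.6, 53.7, 25.8 and 23.6% on days 0 to 7, and its neighbour at 9825572 read 72.3, 69.3, 66.8, 55.8, 44.4, 46.9, 23.2 and 24.5%. Both stayed well above all other CpGs on day 7. They also had fewer reads, 41 and 32 on day 5 and 898 and 694 on day 0. The next by level on days 0 and 1, at 9826970 in the run at the end, stood at 10.5% on day 7 and 64.8% on day 0.

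A few bases further the level was low. The CpG at 9825579, given on the minus strand, stood 7 bp from 9825572 and read 1.90% on day 7 and 9.43% on day 0. This step of 62.9 points on day 0, with 59.6 points on day 2 and 22.6 points on day 7, was the largest between neighbours up to 30 bp apart. Across the 19 such pairs where the strand changed, the median step was 4.75 points on day 0, against 1.01 points in the 139 pairs on 1 strand, whose largest was 34.2 points. On day 7 the median was 0.965 points where the strand changed and 0.459 points on 1 strand. CpGs given on the plus strand averaged 5.04% on day 7 and 26.2% on day 0 (n = 102), and those on the minus strand 4.06% on day 7 and 20.4% on day 0 (n = 61). Strand, fragment and position change together here and cannot be told apart.

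The lowest run, chr21:9826840-9826874 with 8 CpGs on the plus strand, read 3.22, 2.91, 4.21, 5.29, 6.49, 3.40, 1.83 and 1.94% on days 0 to 7. Its highest values were on days 2 to 4, 2 of them in shallow libraries with 1048 reads on day 4. On day 7 it stood at 1.94% (Wilson 95% interval 1.70 to 2.21%, 11416 reads) against 3.22% on day 0 (2.90 to 3.57%). The 11417 autosomal CpGs below 2% on days 0 and 1 read 0.184 to 0.403% in the same libraries. They were chosen for a low level on days 0 and 1, so their gap to this run on those days follows from the choice. They are no independent floor for the locus. On days 2 to 7, as a description, the run read 1.83 to 6.49%, against 0.184 to 0.403%. The 3 lowest single CpGs, at 9826840, 9826844 and 9826847, belong to it, with 2.02, 1.95 and 1.78% on day 7 and 2.56, 2.79 and 3.17% on day 0.

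The 4 CpGs spaced like those of the mature miR-3648 sequence shown above were among the lower ones. Their pooled level was 14.5, 14.7, 13.8, 10.04, 6.45, 5.18, 3.96 and 3.15% on days 0 to 7. The methylated reads on day 7 were 813 of 25823 (Wilson 95% interval 2.94 to 3.37%), against 3262 of 22517 on day 0 (14.0 to 14.95%). The counting intervals of days 0 and 1 overlapped. The CpG with the most reads, at 9826258 in the second kilobase, had 8665 reads on day 0 and stood nearer the mean, with 5.83% on day 7 and 27.4% on day 0.

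How much of the level was kept differed little over most of the locus. On days 6 and 7 pooled, CpGs kept a median of 21.4% of their level on days 0 and 1 (quartiles 19.5 and 24.98%, n = 163), and 138 of the 163 kept 15 to 30%. From day 2 to day 7, 28 runs with at least 10 reads at every CpG in every library were all lower on day 7. Runs outside the locus were not counted beside them. The run at 9826840 kept 46.0%, and the other 27 kept 16.01 to 27.8%, the least of them in the run at 9826970.

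The largest shares kept were at CpGs that began low. The 11 CpGs that kept over 40% were all 8 of the run at 9826840 and 3 of the run chr21:9825828-9825863, which stood at 3.50% on day 7 and 12.6% on day 0. The highest 3 were at 9826840, 9826859 and 9826863, with 82.5, 70.1 and 62.9% kept. Low start and share kept are parts of 1 ratio, so the correlation between them, Pearson r = -0.443 over 163 CpGs and -0.278 over the 148 at 10% or more, is a description.

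The smallest shares kept came from different starts. The CpG at 9825604 kept 14.3%, with 0.931% on day 7 and 7.75% on day 0. The CpG at 9826992, the last of the run at the end of the window, kept 14.4%, and that at 9826421 kept 14.8%, with 17.9% on day 0, 0 methylated of its reads on day 4 and 2.63% on day 7. The pair at 9825568 and 9825572 kept 34.98 and 33.4%, more than the run at 9826970 of a like start.

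**Figure D4:**
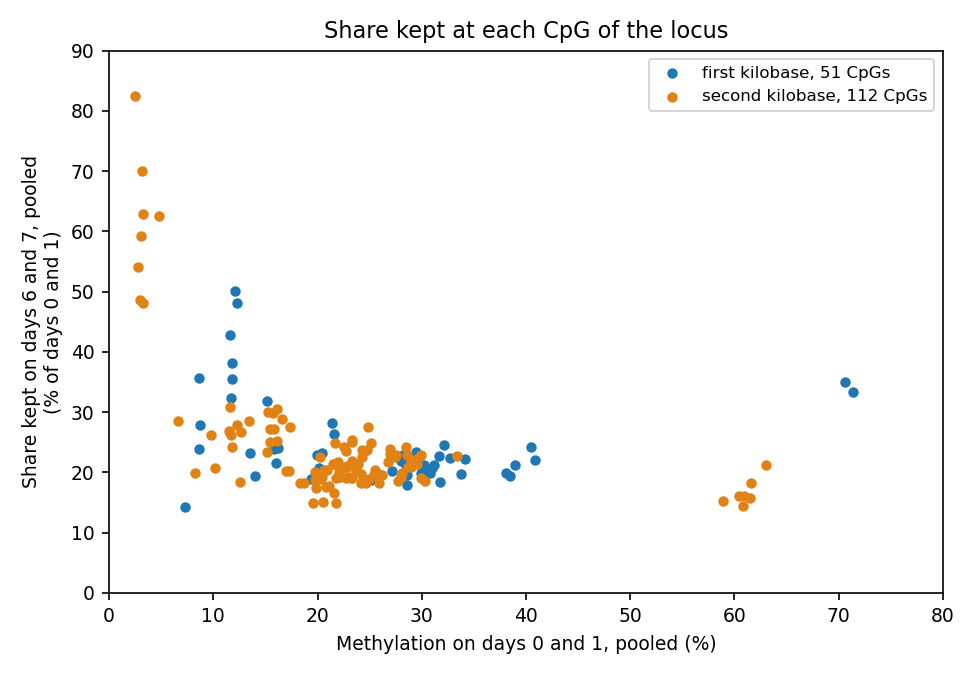
Share of the level on days 0 and 1 (pooled) kept on days 6 and 7 (pooled), in %, against that starting level (%), for the 51 CpGs of the first kilobase (blue) and 112 of the second (orange); each point is 1 CpG. Most points lie between 15 and 30%, the 8 CpGs of the lowest run lie above 40%, and the pair above 70% methylation kept 34.98 and 33.4%.

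The first and second kilobase were compared as a split by position. Their means were 26.1, 25.2, 23.4, 16.2, 12.7, 10.7, 6.81 and 5.72% in the first, over 51 CpGs, and 23.1, 22.2, 20.3, 14.0, 11.3, 9.13, 5.50 and 4.19% in the second, over 112 CpGs, on days 0 to 7. The first stood above the second on every day. Their ratio was 1.13, 1.15, 1.24 and 1.37 on days 0, 2, 6 and 7.

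The log of this ratio rose by 0.03 ± 0.0105 per day over days 2 to 7 (SE, n = 6 libraries, exact permutation p = 0.028, adjusted 0.042), with a 95% permutation interval of 0.00527 to 0.0603. It rests on weighting every CpG equally. With pooled reads the slope was 0.01 (exact permutation p = 0.41), and with a minimum of 1 or 100 reads per CpG it was 0.03 and 0.02 (exact permutation p = 0.053 and 0.16). Without the pair of CpGs at 9825568 and 9825572, an alternative chosen after seeing the data, it was 0.02 (p = 0.20 by the same exact test), and with any 1 of the 6 days left out it lay between 0.0412 (without day 2, exact permutation p = 0.050) and 0.0154 (without day 7, exact permutation p = 0.17). In percentage points the gap between the kilobases narrowed, with a slope of -0.302 points per day (exact permutation p = 0.028), with a gap of 1.53 points on day 7 against 3.09 points on day 2.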

How the data were processed

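RRBS was done by a published protocol for small cell numbers, per the labels' protocols, and the submitters' processing notes name hg19. How reads were aligned, how methylation was called and what was done with reads that map to several places is not stated in the labels. Per the deposited files, each line holds 1 CpG with its methylated and total reads, its strand and a score. The score that the authors deposited equals 1000 times the methylated share, rounded, in every line, and was not used. Starts were changed to count from 1.

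Unless called pooled, levels of the locus, its kilobases and the comparison tiles are means over CpGs with at least 10 reads in every library, each weighted equally. Tiles of 1 kb needed 3 such CpGs. Levels of runs and of the CpGs spaced like those of miR-3648 are shares of the reads pooled over their CpGs. Slopes are least squares of natural logs on day, p values permute the order of days 2 to 7, and 95% intervals hold the slopes that this permutation does not reject. For tiles, a quasi-binomial regression was used whose dispersions limma moderated along a trend in information, with a floor of 1, an F test and Benjamini-Hochberg adjustment. Both steps were tested on simulated reads. For the slopes of logs these reads held counting error only, with no added spread between libraries, so they cannot show how the slopes behave under such spread. Where the spread between libraries was made to grow with depth, the tile test called too many unchanged tiles, so limma on arcsine square-root levels, which weights libraries equally, was run as an alternative. Two-sided p values measure the order of 1 library per day.

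CpGs were named by rule: the 3 highest and 3 lowest on days 0 and 1, the 3 that kept most and least, and the one with most reads. Others were chosen after their values were seen. The locus, the comparison and the lists were chosen with earlier results of these data known. MIR3687 was not matched in the RefSeq tables used here, so its sequence is not shown. Python 3.11.15, numpy 2.4.6, pandas 2.3.3, R 4.3.3 and limma 3.58.1 were used.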

Additional observations from a re-analysis of the deposited data

How the results depend on the processing

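The rate of loss at the locus kept its direction and passed in all 15 alternatives, with log slopes of -0.308 to -0.292 when 1 day was left out. The ratio to other tiles passed in 1 of 23: over all 8 days (0.0326, exact permutation p = 0.048). It had the other sign with 1 read per CpG (-0.0224) and 10 reads per tile (-0.0190), and ranged from 0.00718 to 0.0507 with 1 day left out. On days 0, 1, 2, 6 and 7, which drops the shallow days and adds the 2 days by which the tiles were chosen, it came to 0.0264 (exact permutation p = 0.092). The ratio of the first to the second kilobase passed with all 8 days, the 5 deep libraries (days 0, 1, 2, 6 and 7), background subtracted and without the upper quartile of CpGs by reads. It did not with 1 read per CpG (0.0271), 100 reads per CpG (0.0186), pooled reads (0.0121) or without the 2 highest CpGs (0.0205), nor with any 1 day left out (0.0154 to 0.0412, exact permutation p = 0.050 to 0.17, where 5 days allow no less than 0.017 at the ends of the course and 0.0083 otherwise). In percentage points it was -0.302. The cause was not tested.

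Falling tiles numbered 1751 to 2041 of 2935 with 1 day left out, 1737 by limma on arcsine levels, 627 of 804 with 5 CpGs per tile, 40103 of 55575 with 5 reads per CpG and 419 of 428 with 20, as these rules test other numbers of tiles. Rising tiles numbered 0 without moderation and 25 without day 5. Both locus tiles fell in all 12 alternatives. No paired analysis was possible because each day has 1 library. Days 3 to 5 are shallow, and a trend within these 3 libraries was not tested.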

Other observations

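The 5 CpGs left out for having fewer than 10 reads in some library form 1 run, chr21:9826386-9826415, on the plus strand. They were the shallowest of the locus, with a median of 90 reads on day 0. Their pooled level was 6.60, 6.40, 11.5, 13.2, 0, 12.2, 1.13 and 5.70% on days 0 to 7. On day 4 this rested on 29 reads summed over the 5 CpGs, with 5 to 6 at each. On day 5 the sum was 41, with 6 to 9 at each. A read that spans several of these CpGs is counted at each, so no order of these days can be read. On day 7 the pooled level was 5.70% of 526 reads (Wilson 95% interval 4.02 to 8.03%), against 6.60% on day 0 (4.54 to 9.49%), and these intervals overlap. Day 6 read lower, at 1.13% of 443 reads, and day 2 higher, at 11.5% of 556. A change at this run was not tested.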
